A study of Mus with 9 samples.

Results

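The mouse H2 genes encode the major histocompatibility complex (MHC), and their probe sets were examined in the hippocampus of SAMR1, SAMP8 and trigonelline-treated (TG-treated) SAMP8 mice. All 39 probe sets whose gene symbol begins with H2- were taken, of 22206 probe sets on the array, and these name 43 H2 symbols. A probe set is a group of short probes summarized to 1 value, mostly for 1 annotated gene, and 4 of the 39 name more than 1 gene. The study asked what TG, an alkaloid of coffee and fenugreek, does in the brain of SAMP8 mice. SAMP8 is the senescence-accelerated mouse-prone 8 strain, with early memory decline, and SAMR1 is the senescence-resistant strain used as its normally aging control. Hippocampal RNA of 3 males per group was put on Clariom S Mouse arrays, 9 arrays in all (the design text speaks of duplicate RNA samples). The methods name 16-week-old SAMP8 mice, and state no separate age for SAMR1 and no age at tissue collection, which came after the dosing and testing. TG was given by mouth at 5 mg/kg daily for 30 days and continued through 8 days of behavioral testing, while the SAMR1 and SAMP8 groups were given saline by the sample records, or water by the methods. All 3 groups were trained in the Morris water maze and housed individually. The SAMP8 and TG-treated SAMP8 groups share 1 strain, so any sequence difference from SAMR1 is common to them, and treatment was given in SAMP8 only.

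Class I molecules are a heavy chain of the H2 cluster bound to beta-2 microglobulin, and they show peptides from inside the cell to CD8 T cells and natural killer cells. Class II molecules pair an alpha with a beta chain, and show peptides taken up from outside to CD4 T cells. In the healthy brain, class II is mostly found on a few immune cells such as border macrophages, while class I is also made by endothelium, glia and some neurons. The H2 cluster is among the most variable stretches of the mouse genome between inbred strains, and the arrays were designed on a reference sequence. The probe sequences were not used here, so a sequence difference under a probe and a difference in RNA between the strains cannot be told apart. In tissue RNA, fewer cells of a type and less RNA per cell cannot be told apart either.

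The tables give 1 average per group, on the log2 scale, and no value per array was used, so the spread between mice is unknown and no test was made. Each difference below is a difference of 2 such averages, in log2 units, and it is set against all probe sets. The strain comparison and the TG comparison rest on the same SAMP8 arrays. Over all probe sets, the averages had medians of 6.09 in the SAMR1 group, 6.04 in the SAMP8 group and 6.07 in the TG-treated group. As a check of the labelled tissue, the neuronal markers averaged 7.76 to 19.70 over the groups, while T and B cell markers averaged 3.01 to 6.43. A free-text field of the records speaks of a macrophage line and was not used for the grouping.

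Averages of the H2 probe sets ran from 2.93 to 8.01, and 21 of the 39 were among the 25% of all probe sets with the lowest signal. No H2 probe set differed by more than 2-fold (a log2 difference past 1) between any 2 groups. Past this limit lay 2.22% of all probe sets between SAMP8 and SAMR1, 0.761% between TG-treated SAMP8 and SAMP8, and 1.81% between TG-treated SAMP8 and SAMR1. At a limit of 1.5-fold, 6 H2 probe sets differed between SAMP8 and SAMR1, against 11.1% of all probe sets. These were H2-K1, the probe set of H2-L and H2-D1, H2-Q1, H2-DMb1 and H2-M10.2, all lower in SAMP8, and H2-T23, which was higher. Of these, H2-DMb1 and H2-M10.2 were in the lowest 25% of signal, with a mean of the 3 averages below 4.4. Others were near this limit in some groups. H2-T23 averaged 4.19 in SAMR1, and H2-L/H2-D1 4.22 in SAMP8 and 4.31 in TG-treated SAMP8. H2-Q1 averaged 4.36 and 4.40 in the SAMP8 groups, while H2-K1 was above 4.4 in every group. By direction, the 5 lower ones stood against 6.08% of all and the 1 higher one against 5.00%. With TG, 1 H2 probe set was past 1.5-fold from SAMP8, while 8.21% of all probe sets were. This was H2-M10.2, which was higher, as were 4.48% of all, and 0 H2 probe sets but 3.74% of all were lower. From SAMR1 to TG-treated SAMP8 there were 2, against 10.5% of all. H2-T23 was higher, as were 5.62% of all, and H2-Q1 was lower, as were 4.83%. With no replicate values, none of these counts can be called particular to the H2 genes.

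**Figure D1:**
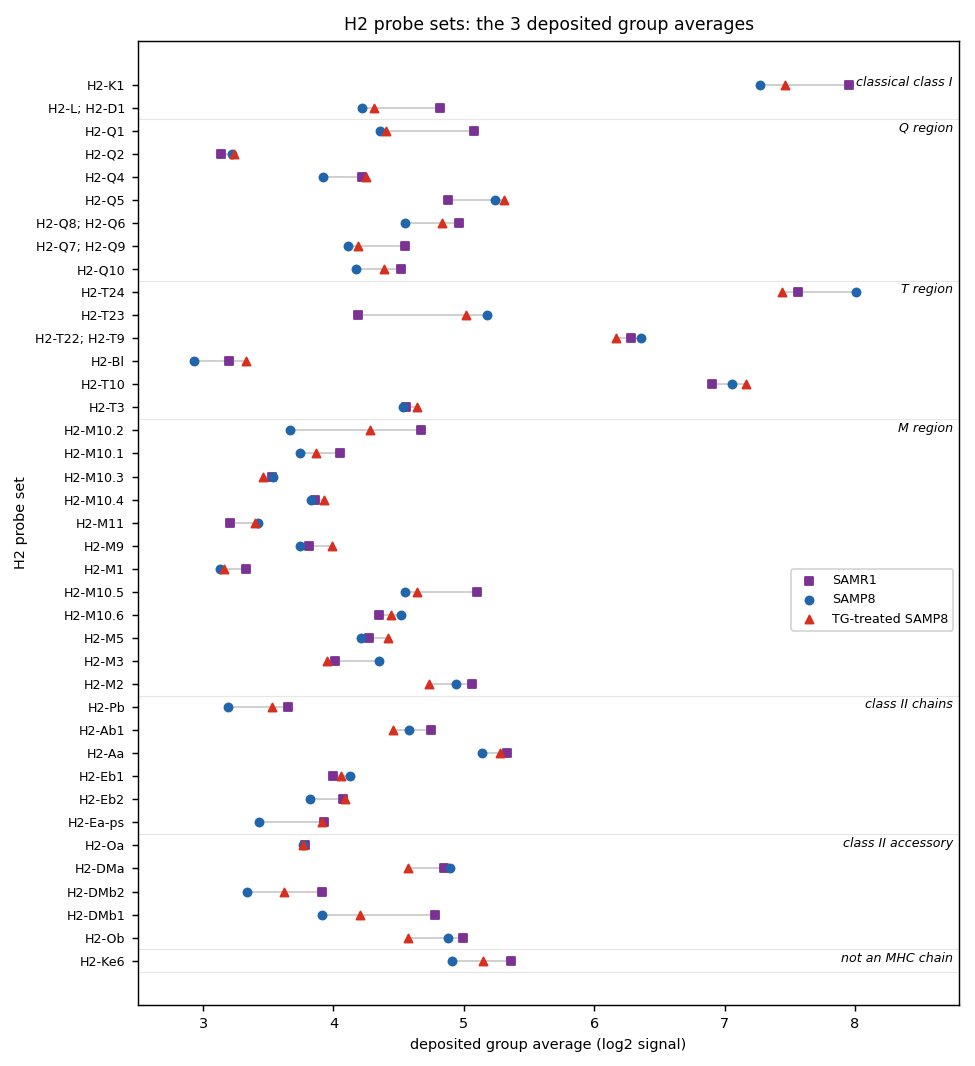
Group averages of all 39 H2 probe sets on the log2 signal axis, by class and in chromosomal order within a class. Squares are SAMR1, circles SAMP8 and triangles TG-treated SAMP8; each symbol is 1 deposited average of 3 arrays and the line joins the lowest to the highest. The SAMR1 squares of H2-K1, H2-L/H2-D1, H2-Q1 and H2-DMb1 sit to the right of both SAMP8 symbols, and that of H2-T23 to the left.

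The classical class I genes, which present peptides to CD8 T cells, were lower in both SAMP8 groups than in SAMR1. H2-K1, on chromosome 17 from 33996012 to 34000619 (GRCm38), averaged 7.95 in SAMR1, 7.27 in SAMP8 and 7.46 with TG, which here and below stands for the TG-treated SAMP8 group. Its average in SAMP8 was thus 1.6-fold below SAMR1, and 4.1% of all probe sets had a lower difference. H2-D1, from 35263094 to 35267497, shares a probe set with H2-L, another class I heavy chain. This probe set stood at 4.82 in SAMR1, 4.22 in SAMP8 and 4.31 with TG. With TG, H2-K1 lay 0.19 and H2-L/H2-D1 0.09 above SAMP8, so their averages stayed nearer to SAMP8 than to SAMR1. The tables cannot say how much of either value belongs to H2-L or to H2-D1.

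The Q region holds nonclassical class I genes, among them H2-Q7 and H2-Q9 of the Qa-2 antigen. Of its 7 probe sets, 5 were lower and 2 higher in SAMP8 than in SAMR1, with a median difference of -0.35, against 0.00 over all probe sets. H2-Q1, from 35320525 to 35328142, averaged 5.08 in SAMR1, 4.36 in SAMP8 and 4.40 with TG. Both SAMP8 averages were thus about equally far below SAMR1, with differences of -0.72 and -0.68. H2-Q7/H2-Q9 averaged 4.55, 4.11 and 4.19 in the same order, and H2-Q8/H2-Q6 4.96, 4.55 and 4.83. H2-Q10, a secreted class I chain of the liver, gave 4.52, 4.17 and 4.39. H2-Q4 was lower in SAMP8 as well, but with TG its average of 4.25 lay beside the 4.22 of SAMR1. H2-Q5, annotated as a transcribed pseudogene, ran the other way, with 4.88 in SAMR1, 5.24 in SAMP8 and 5.31 with TG. H2-Q2 varied by no more than 0.10. All 7 were higher in TG-treated SAMP8 than in SAMP8, by 0.02 to 0.33, as were 50.0% of all probe sets.

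In the T region, H2-T23 had the highest strain difference of the 39 probe sets. H2-T23 encodes Qa-1, which shows leader peptides of other class I chains to the CD94/NKG2 receptors of natural killer cells. On chromosome 17 from 36029977 to 36032701, it averaged 4.19 in SAMR1, 5.18 in SAMP8 and 5.02 with TG. The difference of 0.99 between the strains was 1.99-fold, just inside the 2-fold limit, and 99.1% of all probe sets had a lower one. The difference between TG-treated SAMP8 and SAMR1 was 0.83. For the receptor genes, Klrc1 averaged 3.29, 3.49 and 3.42 in SAMR1, SAMP8 and TG-treated SAMP8, and Klrd1 4.01, 3.95 and 4.11.

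H2-T24 was the T region gene farthest from SAMP8 with TG. Its averages were 7.56 in SAMR1, 8.01 in SAMP8 and 7.44 with TG, a difference of -0.57 with TG that was the lowest among the 39. H2-T22 and H2-T10 are ligands of gamma-delta T cells, and the annotation lists H2-T10 as a transcribed pseudogene in the reference strain. The probe set of H2-T22 and H2-T9 gave 6.28, 6.36 and 6.17, and H2-T10 gave 6.90, 7.06 and 7.16. H2-T3, the thymus leukemia antigen, stayed within 0.11 between groups. The pseudogene H2-Bl had the lowest average of any H2 probe set, 2.93 in SAMP8, with 3.20 in SAMR1 and 3.33 with TG.

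The M region is at the far end of the cluster and includes the M10 genes, made by sensory neurons of the vomeronasal organ, and H2-M3, which presents formylated peptides of bacteria. Of its 12 probe sets, 9 were in the lowest 25% of signal. H2-M10.2, from 36284281 to 36286421, averaged 4.67 in SAMR1, 3.67 in SAMP8 and 4.28 with TG. It thus lay exactly at the 2-fold limit between the strains, with a difference of -1.00, and its difference of 0.61 with TG was the highest of the H2 probe sets. H2-M10.5 averaged 5.10, 4.55 and 4.64. H2-M3 averaged 4.01, 4.35 and 3.95, highest in SAMP8. For the other 9 M region probe sets (H2-M10.1, H2-M10.3, H2-M10.4, H2-M10.6, H2-M1, H2-M2, H2-M5, H2-M9 and H2-M11), no difference between SAMP8 and SAMR1 went beyond -0.31 or 0.21.

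Among the class II chains, H2-Aa and H2-Ab1 form the I-A molecule. H2-Aa averaged 5.33 in SAMR1, 5.14 in SAMP8 and 5.28 with TG, and H2-Ab1 4.75, 4.58 and 4.46. The 3 groups were thus within 0.29 for both chains of I-A. H2-Eb1, the beta chain of I-E, averaged 4.00, 4.13 and 4.06. H2-Ea-ps, the alpha chain of I-E and a pseudogene in the reference strain, gave 3.93, 3.43 and 3.91. H2-Eb2 gave 4.07, 3.82 and 4.09, and the pseudogene H2-Pb 3.65, 3.19 and 3.53. All of these were within 1.5-fold in every comparison.

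The class II accessory genes act inside the cell: H2-DM frees the groove for peptides, and H2-O restrains H2-DM. H2-DMb1, from 34153191 to 34160229, had the largest strain difference of the class II genes, with 4.78 in SAMR1, 3.91 in SAMP8 and 4.20 with TG. Its average was 1.83-fold lower in SAMP8, and 2.1% of all probe sets lay lower. The second DM beta gene, H2-DMb2, averaged 3.91, 3.34 and 3.62. Their partner H2-DMa gave 4.85, 4.89 and 4.57, so SAMP8 and SAMR1 were only 0.04 apart for the alpha chain. Of the H2-O chains, H2-Oa was at 3.78, 3.77 and 3.77, and H2-Ob at 4.99, 4.88 and 4.57. H2-Ke6 carries the H2 prefix by its place but encodes a steroid dehydrogenase (Hsd17b8), and averaged 5.36, 4.91 and 5.15.

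Across the 39 probe sets, 27 were lower and 12 higher in SAMP8 than in SAMR1, with a median difference of -0.17. Lower values made up 69.2% of the H2 probe sets and 49.0% of all probe sets. Low signal moved with this direction: among the 14232 probe sets within the H2 range of mean signal, 57.5% were lower in SAMP8, with a median of -0.06. This range is not matched to the H2 signal. In the lowest 25% of signal were 35.9% of its probe sets but 53.8% of the H2 probe sets, so the H2 probe sets were dimmer. The part of low signal in the H2 values was not tested. With TG, 26 were higher than in SAMP8, 12 were lower and H2-Oa was equal, with a median of 0.09 against 0.01 over all probe sets and 0.03 over those in this range. Higher values were 66.7% of the H2 probe sets, 50.0% of all and 54.8% of those in this range. Between TG-treated SAMP8 and SAMR1, 25 were lower and 14 higher, with a median of -0.11 against -0.01 over all probe sets and -0.03 over those in this range. Lower values were 64.1% of the H2 probe sets, 50.4% of all and 53.8% of those in this range. Without the probe sets in the lowest 25% of signal, the 18 left had medians of -0.12 in SAMP8 vs SAMR1, 0.06 in TG-treated SAMP8 vs SAMP8 and -0.17 in TG-treated SAMP8 vs SAMR1. These counts describe averages and have no error of their own.

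To separate differences that were constant with TG from those that moved with it, a probe set was called apart in SAMR1 when both SAMP8 groups were past a limit from SAMR1 in 1 direction and within it of each other. No H2 probe set met this at 2-fold, where 0.820% of all probe sets did. At 1.5-fold, H2-Q1 and H2-T23 met it, 2 of 39, against 3.76% of all. When the mean of both SAMP8 groups was set against SAMR1, H2-K1, H2-Q1, H2-DMb1 and H2-T23 met the 1.5-fold limit, 4 of 39, against 6.65% of all, and 0 met the 2-fold limit, against 1.27%. H2-K1 did so by the narrowest margin, at -0.585, and H2-L/H2-D1 fell just short at -0.555. H2-M10.2 was counted in none of these: with TG it was -0.39 from SAMR1, inside the 1.5-fold limit, and its averages in the SAMP8 groups were 1.53-fold apart. The mean of the SAMP8 groups was farther from SAMR1 than the SAMP8 groups were from each other for 22 of the 39, or 56.4%, and for 47.8% of all probe sets.

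**Figure D2:**
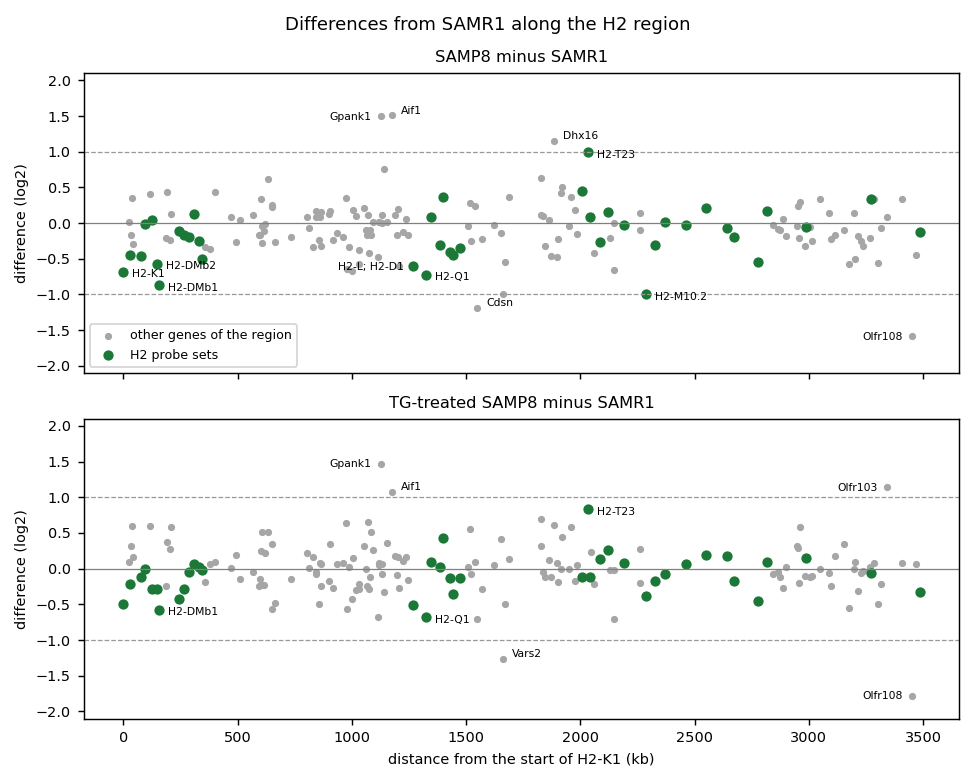
Differences of group averages from SAMR1 (log2, vertical axis) for SAMP8 above and TG-treated SAMP8 below, against the distance from the start of H2-K1 in kb. Green points are the 39 H2 probe sets, grey points the 138 other probe sets of the region, and dashed lines the 2-fold limit; both panels use the same SAMR1 arrays. The green points at the left end lie mostly below 0 and H2-T23 stands at 0.99 and 0.83, while Gpank1 and Aif1 among the grey points are higher.

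The cluster was also divided into 3 stretches by position, after the values were seen. From H2-K1 to H2-Ea-ps there were 13 H2 probe sets, of which 11 were lower in SAMP8 than in SAMR1, with a median of -0.25. Of the 9 other genes measured in this stretch, 4 were lower in SAMP8, with a median of 0.01. These shares of 84.6% and 44.4% stand beside 49.0% of all probe sets and 57.5% of those within the H2 range of mean signal. The stretches' genes also differed in signal, with 7 of the 13 H2 probe sets and 1 of the 9 others among the dimmest 25%, and the part of signal in these counts was not tested. With TG, 11 of these 13 H2 probe sets and 1 of the 9 other genes were below SAMR1, against 50.4% of all probe sets. The D and Q stretch ran from the end of H2-Ea-ps to the end of H2-Q10. Of its H2 probe sets, 6 of 8 were lower in SAMP8 than in SAMR1, or 75.0%. Of its other probe sets, 33 of 65 were lower, or 50.8%, and all 65 lie before H2-D1. The last stretch ran from the end of H2-Q10 on, and 10 of its 18 H2 probe sets were lower, or 55.6%. This was a smaller share than the 62.5% of the other probe sets there, 40 of 64. Part of these others lie between H2-Q10 and H2-T24, before the T region. The H2 probe sets of these 2 stretches were dimmer too, with 50.0% and 55.6% in the lowest 25% of signal, against 27.7% and 40.6% of the others.

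The genes that load class I molecules lay on both sides of SAMR1, with 9 of 15 higher and 6 lower in SAMP8. Higher values were 60.0% of this list and 49.5% of all probe sets. B2m, on chromosome 2 from 122147687 to 122153082, encodes the light chain that every class I heavy chain needs at the cell surface. It averaged 9.16 in SAMR1, 10.61 in SAMP8 and 10.64 with TG. B2m was thus 2.73-fold higher in SAMP8 than in SAMR1, and differed by 0.03 between the SAMP8 groups. Tapbp, the tapasin that holds class I at the peptide transporter, lies beside H2-K1 and ran lower in SAMP8, with 10.93, 10.25 and 10.64. The transporter genes gave 5.81, 6.25 and 6.19 for Tap1 and 5.27, 5.40 and 5.86 for Tap2. Nlrc5, the transactivator of class I genes, averaged 3.53, 3.59 and 3.28. Of the 15 class I pathway genes, only B2m was past 2-fold between SAMP8 and SAMR1, against 2.22% of all probe sets. At 1.5-fold, B2m was higher and Tapbp lower, against 11.1% of all in either direction. Between TG-treated SAMP8 and SAMP8, 0 were past 1.5-fold, against 8.21% of all. Between TG-treated SAMP8 and SAMR1, 2 were, B2m and Tap2, against 10.5% of all.

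In the class II pathway, 14 of the 15 listed genes were found, and Marchf1 was not found under that symbol. Cd74, the invariant chain that escorts class II molecules, averaged 4.53 in SAMR1, 4.68 in SAMP8 and 4.17 with TG. Ciita, the master regulator of class II transcription, averaged 4.88, 4.60 and 4.83. Rfxank, a subunit of the RFX factor that binds MHC promoters, averaged 5.84, 6.65 and 5.96. It was the only gene of the list past 1.5-fold in SAMP8 vs SAMR1 or in TG-treated SAMP8 vs SAMP8, against 11.1% and 8.21% of all probe sets. In TG-treated SAMP8 vs SAMR1, the only 1 was Rfxap, at 8.92, 9.15 and 9.52, against 10.5% of all. The proteases Ctss and Lgmn, which trim the invariant chain and antigens, were at 9.26, 9.82 and 9.68 and at 12.11, 12.51 and 12.06.

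**Figure D3:**
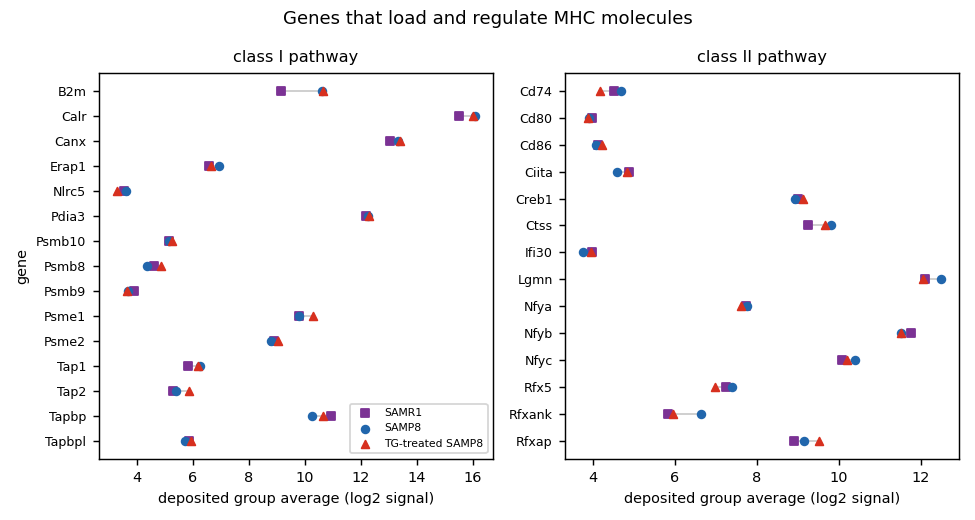
Group averages (log2 signal, horizontal axis) of the 15 class I and 14 class II pathway genes outside the H2 cluster's own chains. Squares are SAMR1, circles SAMP8 and triangles TG-treated SAMP8, each 1 deposited average of 3 arrays; B2m shows the widest gap, from 9.16 in SAMR1 to 10.61 and 10.64 in the SAMP8 groups.

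Interferons raise class I and class II transcription, so 18 interferon-induced genes were set beside the H2 genes. Of these, 14 were higher and 4 lower in SAMP8 than in SAMR1, with a median of 0.26. Higher values were 77.8% of this list and 49.5% of all probe sets, whose median was 0.00. Past 1.5-fold were 3 of the 18, all higher, against 5.00% of all, and 0 were past 2-fold, against 2.22% of all. Oasl2 averaged 4.59, 5.25 and 5.14, Irgm1 5.20, 5.82 and 5.83, and Ifit3 7.27, 7.87 and 8.35 in SAMR1, SAMP8 and TG-treated SAMP8. With TG, 8 were higher than in SAMP8 and 7 lower, with a median of 0.00. Among 12 genes for receptors and partners of class I, such as Cd8a and Fcgrt, 0 were past 1.5-fold in any comparison. Of all probe sets, 11.1% were past it in SAMP8 vs SAMR1, 8.21% in TG-treated SAMP8 vs SAMP8 and 10.5% in TG-treated SAMP8 vs SAMR1.

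**Figure D4:**
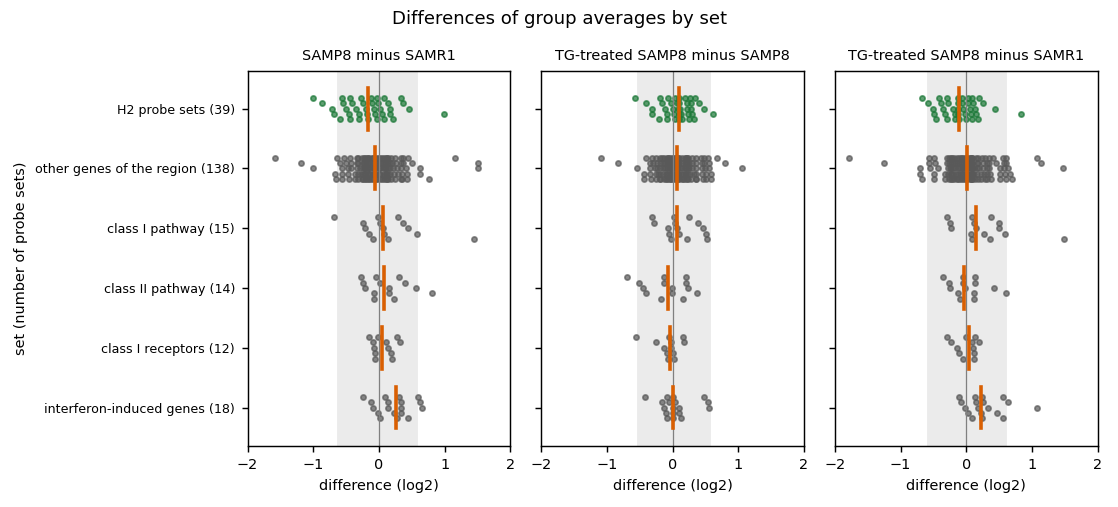
Differences of group averages (log2, horizontal axis) for each probe set of 6 sets, in the 3 comparisons. Points are probe sets, orange bars set medians, and the grey band the range from the 5th to the 95th percentile of all 22206 probe sets; the H2 medians are -0.17, 0.09 and -0.11 from left to right.

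Markers of the cells that could carry MHC molecules differed among themselves. Of the 8 microglia markers, P2ry12 averaged 11.17 in SAMR1, 12.03 in SAMP8 and 11.60 with TG, while Trem2 averaged 5.51, 4.81 and 5.21 and C1qa 5.02, 4.41 and 5.08. Aif1, the Iba1 marker of microglia, averaged 5.71, 7.22 and 6.78, and its gene lies inside the H2 cluster. Of the 6 border macrophage markers, Mrc1 averaged 5.51, 6.51 and 6.27, and the other 5 were within 1.5-fold in every comparison. For dendritic, T and B cell markers, 0 of 15 were past 1.5-fold between any of the groups, against 8.21% to 11.1% of all probe sets by comparison. The medians of the microglia and border macrophage lists were -0.20 and 0.08 between SAMP8 and SAMR1, and 0.13 and -0.02 with TG. Of the other cells that make class I, all 4 astrocyte markers were higher in SAMP8 than in SAMR1, with Gfap at 11.08, 12.03 and 11.92 and Slc1a3 at 11.14, 11.76 and 11.38. All 4 endothelial markers were higher too, with Flt1 at 8.72, 9.38 and 9.16, and 4 of 5 neuronal markers were higher and 0 lower. Of the 4 oligodendrocyte markers, 3 were lower. Over all probe sets, 49.5% were higher and 49.0% lower in SAMP8 than in SAMR1. Direction moved with signal, as 40.9% of the probe sets within the H2 range of mean signal were higher. The astrocyte, endothelial, neuronal and oligodendrocyte lists were bright, with SAMR1 medians of 11.11, 7.605, 11.45 and 12.225, against 6.09 over all. The part of signal in these marker counts was not tested. Markers of tissue beside the hippocampus did not move together. Of the 6 meningeal markers, Igf2 averaged 7.09 in SAMR1, 8.67 in SAMP8 and 6.78 with TG. It was the only 1 higher in SAMP8 than in SAMR1, while 4 were lower, among them Dcn with 10.66, 10.15 and 9.38. Between TG-treated SAMP8 and SAMP8, 3 meningeal markers were higher and 3 lower. Of the 4 choroid plexus markers, 3 were higher and 1 lower in SAMP8 than in SAMR1. Ttr averaged 8.45, 9.33 and 10.05, and was the only 1 higher in TG-treated SAMP8 than in SAMP8, where 3 were lower. The part of any of these cells in the H2 averages was not tested.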

How the data were processed

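The authors ran SST-RMA, which corrects, normalizes and summarizes probe signals, in TAC (version 4.0.1 in the design text; the methods name a later release). The 2 deposited tables hold the authors' averages of each group as log2 signal; they also hold the authors' fold changes and p-values, which were not used. Per the file headers, the annotation is on mm10. The SAMP8 averages are the same in both tables. Here, averages were subtracted and the differences counted against linear fold limits of 2 and 1.5. No replicate values were used, so no test was made and no error can be given; the 3 arrays per group limit the precision.

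Genes were placed with the RefSeq table of GRCm38.p6, and all 39 H2 probe sets were placed on chromosome 17. Neighbours are the 138 other probe sets with a gene between the first and last H2 gene (33974659 to 37483554). The counting was tested on simulated data. Members and lists were chosen with earlier results of these data known. Every H2 probe set is named. Python 3.11.15, numpy 2.4.6, pandas 2.3.3 and matplotlib 3.10.9 were used.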

Additional observations from a re-analysis of the deposited data

How the results depend on the processing

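Of the 39 H2 probe sets, 0 were past 2-fold in any of the 3 comparisons and 0 were apart in SAMR1. These counts were also 0 at a limit of 3-fold, after dropping the dimmest 25% of probe sets, with single-symbol probe sets only and per H2 symbol. None of these choices can bring a difference past the limit, so they are no check of the counts. At 1.5-fold they were 6 for SAMP8 vs SAMR1, 1 for TG-treated SAMP8 vs SAMP8, 2 for TG-treated SAMP8 vs SAMR1 and 2 apart in SAMR1. Centring each group on its median gave 1 for SAMP8 vs SAMR1, where the difference of H2-T23 became 1.04. It also brought H2-L/H2-D1 in SAMP8 vs SAMR1 to -0.55 and H2-M10.2 with TG to 0.58, both inside the 1.5-fold limit of 0.585. Centred, H2-K1 differed from SAMR1 by -0.63 in SAMP8 and -0.47 in TG-treated SAMP8, and the mean of these is inside that limit. Without centring, counting a difference at the limit also gave 1, H2-M10.2, and the mean of both SAMP8 groups at 1.5-fold gave 4 apart in SAMR1, H2-K1 among them. These 2 choices were made after the data were seen. The medians kept their sign in these alternatives, between -0.19 and -0.12 for SAMP8 vs SAMR1 between 0.06 and 0.10 for TG-treated SAMP8 vs SAMP8, and between -0.17 without the dimmest probe sets and -0.06 with single-symbol probe sets for TG-treated SAMP8 vs SAMR1. Leaving out single arrays was not possible with averages. No paired analysis was possible because the columns carry no replicate numbers. Signals near the low end of the scale limit what 21 of the probe sets can show, and also others with an average near 4.4 in some group.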

Other observations

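Among the 138 other probe sets of the region, 5 were past 2-fold between SAMP8 and SAMR1, against 2.22% of all probe sets. Gpank1 averaged 5.44 in SAMR1, 6.94 in SAMP8 and 6.91 with TG. Aif1 and Dhx16 were also higher in SAMP8, and Dhx16 averaged 8.12, 9.27 and 8.73. Lower in SAMP8 were Cdsn, with 5.77, 4.58 and 5.06, and the olfactory receptor gene Olfr108, with 5.46, 3.88 and 3.68. Vars2 lay at the limit, with 7.31, 6.31 and 6.05. With TG, 2 of the 138 were past 2-fold from SAMP8, against 0.761% of all: Bag6, at 9.93, 10.69 and 9.60, and Olfr103, at 3.94, 4.03 and 5.08. These genes were named after their values were seen, and with no replicate values the counts cannot be called particular to the region.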
